A study of Mus musculus with 2 samples.

Results

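The major urinary proteins are encoded by the *Mup* genes of the mouse. The 7 genes described here, *Mup1*, *Mup2*, *Mup3*, *Mup7*, *Mup17*, *Mup20* and *Mup21*, were taken by their symbol from the tables of both liver libraries, out of 53241 distinct symbols. All 7 were found in both tables. The 7 were chosen by their normalized reads in these same libraries, with the difference between the libraries known, so their values are a description and no test is made of them. A further 15 coding *Mup* genes and 27 *Mup* pseudogenes in the same tables served for comparison.

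The study compared the liver of iFIRKO mice, in which the insulin receptor can be deleted in adipocytes on demand, with that of control mice. iFIRKO mice had the genotype Adipoq-CreERT2; Insr flox/flox, so a Cre recombinase that tamoxifen activates is driven by the promoter of the adipocyte gene *Adipoq*. The labels give the control genotype as WT, whereas the methods of the study describe IR flox/flox mice. Both groups were male and 7 weeks old, both were given tamoxifen (100 mg/kg, 5 days), and the liver was collected 3 days after the last injection. Each group is 1 library, and the number of mice behind it is not given in the sources used here. No difference between the libraries has a replicate check, and no p-value is given.

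Major urinary proteins are lipocalins, small barrel-shaped proteins that hold a hydrophobic ligand in their centre. Hepatocytes secrete them into the blood, the kidney passes them into the urine, and there they carry and slowly release volatile odorants that signal sex, status and identity to other mice. Male livers make more of them than female livers, which depends on the pulsatile growth hormone of males and the transcription factor STAT5. The product of *Mup20*, called darcin, is itself a male pheromone.

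The genes lie together on mouse chromosome 4, where the 22 coding genes span 2194 kb (chr4:59956804-62150863 in GRCm38, GENCODE M21). Of these, 16 are near-identical copies, each at least 99% identical in coding sequence to another, and *Mup1*, *Mup2*, *Mup7* and *Mup17* are among them. The other 6 are divergent and include *Mup3*, *Mup20* and *Mup21*, which are neighbours at one end of the cluster. *Mup20* has 7 exons (chr4:62050234-62054158), as has *Mup3* (chr4:62083476-62087342), and *Mup21* has 6 (chr4:62147932-62150863). The other 4 have 7 exons each, and lie at chr4:60066469-60070475 (*Mup7*), chr4:60135932-60154289 (*Mup2*), chr4:60498012-60501960 (*Mup1*) and chr4:61591929-61595871 (*Mup17*). All 7 are on the minus strand, and no other annotated gene overlaps them.

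A stretch of 30 coding bases shows how the 7 genes differ and which of them a read can tell apart. It lies within a single exon of each gene, and the capitals mark the 14 positions at which the 7 are not all alike. *Mup1* (chr4:60501382-60501411), *Mup2* (chr4:60139319-60139348), *Mup7* (chr4:60069833-60069862) and *Mup17* (chr4:61595293-61595322) have the same letters here, so that 1 line stands for all of them. *Mup20* (chr4:62053580-62053609), *Mup3* (chr4:62086900-62086929) and *Mup21* (chr4:62150295-62150324) each have letters of their own.
Mup1, Mup2, Mup7 and Mup17: ATgggGaAtggCAtActattATCCTGgccT
Mup20: ATgggGaAtggTAtActattATGCTGgccA
Mup3: GTgggTaTtggTTtTctattGCTGAAgccT
Mup21: GCgggTaTtggTTtTctattGCTGAAgccT

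The 4 near-identical members differ from each other at 11 of 540 aligned coding positions, whereas the 7 genes together differ at 125 of 552. The next stretch, coding bases 13 to 42 counted from the start codon, is where the 4 are least alike, and its capitals mark the 3 positions that vary. It lies at chr4:60501808-60501837 in *Mup1*, chr4:60139745-60139774 in *Mup2*, chr4:60070259-60070288 in *Mup7* and chr4:61595719-61595748 in *Mup17*, all on the minus strand. *Mup2* and *Mup17* are the same even here.
Mup1: ctgctgctgtgtGtgggActgaccctagtC
Mup2: ctgctgctgtgtTtgggActgaccctagtC
Mup7: ctgctgctgtgtTtgggGctgaccctagtG
Mup17: ctgctgctgtgtTtgggActgaccctagtC

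These differences limit what a read can be assigned to. Of all windows of 100 bases in the annotated transcript, 97.1% in *Mup3* and 95.5% in *Mup21* occurred in no other annotated gene. The share was 61.2% in *Mup20*, whose remaining windows were shared with the pseudogene *Mup-ps19* only. It was 40.6% in *Mup17*, 12.9% in *Mup7*, 12.8% in *Mup1* and 2.7% in *Mup2*, each of which shared windows with at least 16 other genes. The separate values of the last 4 are therefore uncertain, because the counting could split reads between copies or leave them out. The low values of the tables are fractions of reads more often in *Mup* rows than elsewhere. Of *Mup* rows with under 30 normalized reads, 1 of 18 in the control library and 0 of 17 in the iFIRKO library lay within 0.01 of a whole number of reads, whereas 48.4% and 51.2% of all such rows did.

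The authors deposited normalized read counts on a log2 scale. Values below are back on the linear scale, as normalized reads, of which the control library held 42003900 and the iFIRKO library 41579630. The fold change is iFIRKO over control with 4.18 normalized reads added to each value, which stands for a CPM (count per 1000000) of 0.1. Intervals are exact 95% Clopper-Pearson intervals on estimated read pairs. They cover counting error only and say nothing of the spread between mice. Genes that reached a CPM of 1 (41.8 normalized reads) in at least 1 library were compared, and all 7 members passed.

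*Mup3*, *Mup20* and *Mup21*, the members most easily told apart by a read, had more reads in the iFIRKO liver, and the members summed were higher by a factor of 1.60. Of the 7 members, 5 were more than 1.5-fold higher and 0 were lower, where 4.46% of the 13400 genes compared were higher and 7.28% lower. The median log2 fold change of the members was 0.67, against 0.008 over all genes compared. The genes were chosen for this contrast, so nothing is read from the count. In a bulk liver library, more cells of a type and more RNA per cell cannot be told apart.

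*Mup3* had the most listed reads of the *Mup* rows in both libraries. Since the treatment of reads that match several genes is not given, its level may not be comparable with those of the near-identical copies. *Mup3* had 122970 normalized reads in the control and 195465 in the iFIRKO liver, or 0.67 as a log2 fold change (interval 0.65 to 0.68). It ranked 39 among all rows of the control table and 25 in the iFIRKO table. *Mup3* alone held 71.9% of the reads of the 7 members in the control and 71.2% in the iFIRKO liver, and 70.2% of the difference between the summed values.

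*Mup20*, the darcin gene, had 26748 normalized reads in the control and 49602 in the iFIRKO liver. The log2 fold change was 0.89 (interval 0.86 to 0.92), and its rank moved from 181 to 90. It made up 22.1% of the difference between the summed members, more than its 15.6% of their reads in the control. The pseudogene *Mup-ps19*, with which it shares windows, had 275.0 and 491.4 normalized reads, or 0.83 as a log2 fold change (interval 0.53 to 1.15). Both rows summed gave a log2 ratio of 0.89, most of it from *Mup20*.

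*Mup21* is the closest relative of *Mup3*, with 94.9% coding identity, and had the lowest level of the 7 in the control. It had 621.9 normalized reads in the control and 1360 in the iFIRKO liver, which is 2.18-fold. Its log2 fold change of 1.12 (interval 0.93 to 1.33) was above that of every other member, and its interval lay above the intervals of *Mup3*, *Mup20* and *Mup7* but overlapped that of *Mup17*, which ran from 0.67 to 0.94. *Mup3* and *Mup21* together gave a log2 ratio of 0.67.

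The 4 near-identical members belong to the central group of the cluster, whose proteins make up much of the individual pattern of male urine. Their listed folds were less alike than their sequences. Reads may have been split among the copies, and the intervals below leave that uncertainty out. *Mup7* had 10507 and 16676 normalized reads (control, then iFIRKO), or 0.67 as a log2 fold change (interval 0.62 to 0.72). *Mup17* had 1422 and 2484, with a log2 fold change of 0.80. Both were past 1.5-fold. *Mup1* had 1569 and 1976, or 0.33 as a log2 fold change (interval 0.20 to 0.47), which is above 0 and short of 1.5-fold. *Mup2* had 7269 and 6844, or -0.09 as a log2 fold change (interval -0.15 to -0.02), and was the only one of the 7 with fewer reads in the iFIRKO liver, although scaling to equal totals of abundant secreted proteins brought it to -0.00.

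**Figure D1:**
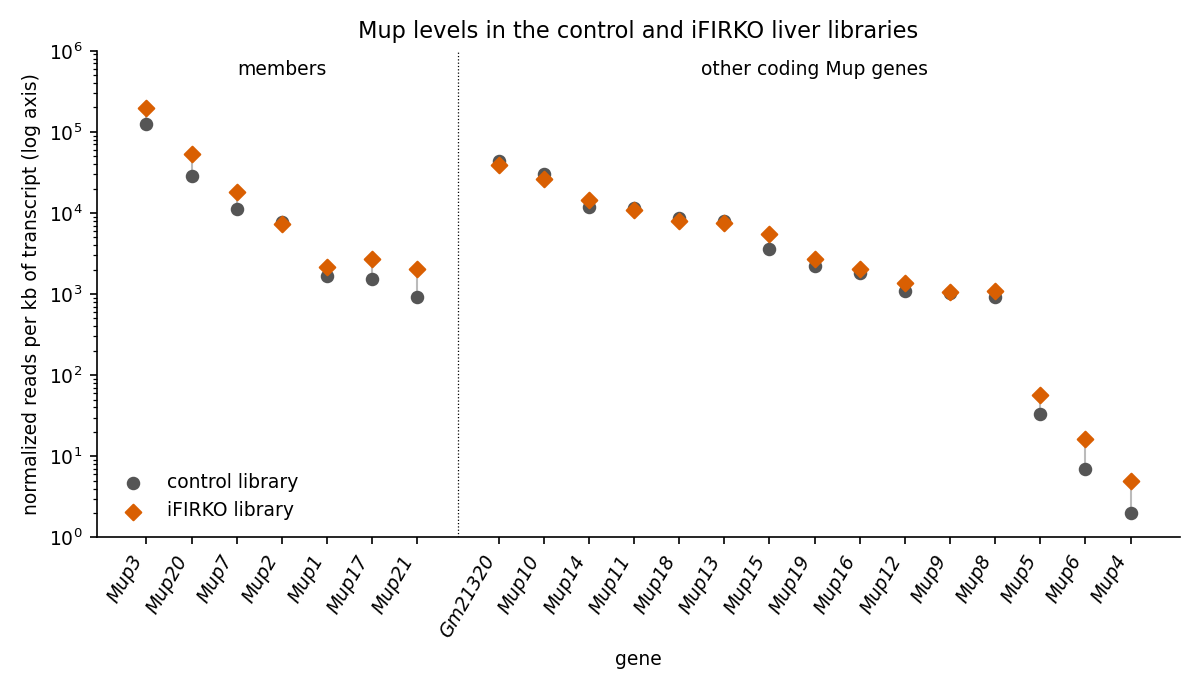
Levels of the 7 *Mup* genes (left of the dotted line, "members") and of the 15 other coding *Mup* genes, in normalized reads per kb of annotated transcript on a log axis. Circles are the control library and diamonds the iFIRKO library, 1 library each, with no error bar; *Mup3* is highest in both, and *Mup20* passes *Gm21320* and *Mup10* in the iFIRKO library. Levels of near-identical copies, these 2 included, are uncertain because reads may have been split among them.

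Per kb of transcript, the order of the listed levels changed little between the libraries. The places of the near-identical copies are uncertain, because reads may have been split among them. In the control, *Mup3* (124970 normalized reads per kb) was followed among the members by *Mup20* (28824), *Mup7* (11334), *Mup2* (7841), *Mup1* (1692), *Mup17* (1534) and *Mup21* (918.6). In the iFIRKO liver the order began in the same way, with *Mup3* at 198644, *Mup20* at 53451, *Mup7* at 17990 and *Mup2* at 7383 per kb. There *Mup17* (2680) lay above *Mup1* (2131) and *Mup21* (2009). *Mup3* exceeded *Mup21* by 136 times per kb in the control and by 98.9 times in the iFIRKO liver. Among all 22 coding genes, *Mup20* moved from the place of 4 to that of 2, past *Gm21320* and *Mup10*.

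The summed members had 171107 normalized reads in the control and 274408 in the iFIRKO liver, a log2 ratio of 0.68 with an interval from 0.67 to 0.69. This was 0.407% of all reads in the control (interval 0.4046 to 0.4101) and 0.660% in the iFIRKO liver (interval 0.6565 to 0.6635). The sum differed by likeness of the copies. *Mup3*, *Mup20* and *Mup21* together went from 150340 to 246428, a log2 ratio of 0.71, while *Mup1*, *Mup2*, *Mup7* and *Mup17* together went from 20766 to 27980, a log2 ratio of 0.43.

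The sum over all near-identical copies does not depend on how reads were split among these copies. It would miss any reads left uncounted because they match several genes. The 16 copies, with *Gm21320* counted because RefSeq gives that symbol as a synonym of *Mup22*, had 132929 normalized reads in the control and 135723 in the iFIRKO liver. The log2 ratio was 0.03 with an interval from 0.01 to 0.05, so the group differed by 2795 reads where the divergent genes differed by 96121. Within the group, 10 copies had more reads in the iFIRKO liver, by 12775 in all, and 6 had fewer, by 9981 in all. The 12 copies that are not members went from 112162 to 107743, a log2 ratio of -0.06, which became 0.02 when the libraries were scaled to equal totals of abundant secreted proteins. The 4 members held 15.6% of the reads of the near-identical copies in the control and 20.6% in the iFIRKO liver.

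**Figure D2:**
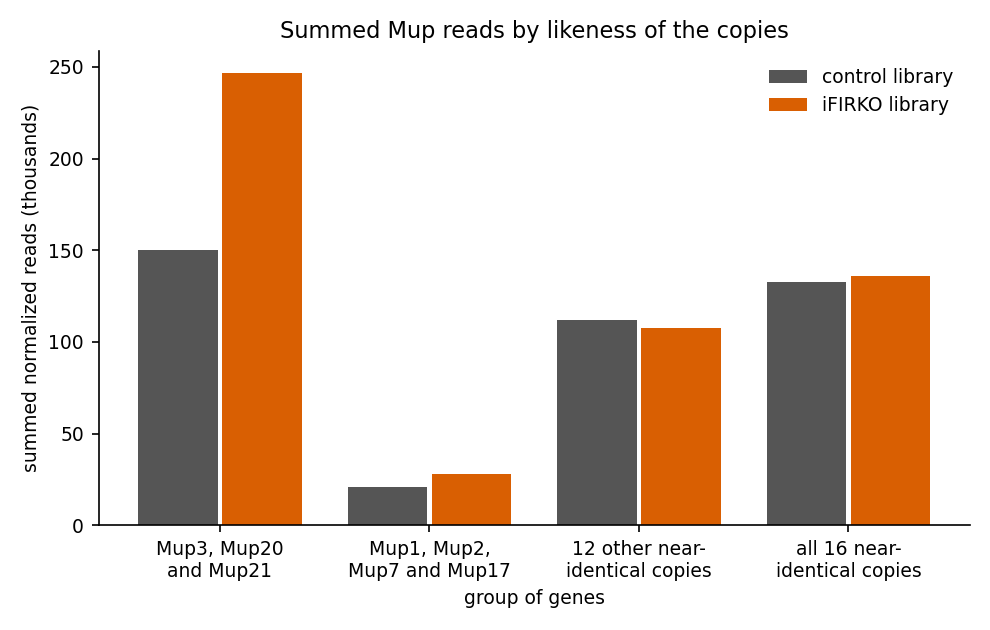
Summed normalized reads, in units of 1000, in the control library (grey) and the iFIRKO library (orange), 1 library each, for *Mup3*, *Mup20* and *Mup21*, for the 4 near-identical members, for the 12 other near-identical copies and for all 16. The divergent members go from 150340 to 246428, while the bars of all 16 near-identical copies are level at 132929 and 135723.

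Among the near-identical copies outside the 7, *Gm21320* and *Mup10* had the most listed reads. The separate values of these copies are uncertain too, because reads may have been split among them and the members. *Gm21320* had 37580 normalized reads in the control and 33172 in the iFIRKO liver (log2 fold change -0.18), and *Mup10* had 27733 and 24319 (-0.19). Both were lower in the iFIRKO liver by less than 1.5-fold. *Mup11* (-0.09), *Mup13* (-0.08) and *Mup18* (-0.13) had similar log2 fold changes. *Mup14* (0.28), *Mup12* (0.32), *Mup19* (0.29), *Mup8* (0.25), *Mup16* (0.14) and *Mup9* (0.04) were above 0 and short of 1.5-fold. *Mup15* was the only one of the 12 past it, with 3292 and 5058 normalized reads and a log2 fold change of 0.62. Only 2.7% of its 100-base windows occurred in no other gene, and 0.0% of those of *Gm21320* (as *Mup22*).

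The 3 divergent genes that are not members were low. *Mup5*, known from salivary glands, had 30.32 and 52.01 normalized reads and a log2 fold change of 0.70 whose interval, -0.16 to 1.83, holds 0. *Mup6* had 6.384 and 15.25, and *Mup4*, known from the nose and its glands, had 1.857 and 4.552, both under the minimum level. Of the 22 coding genes, 20 passed the minimum, 7 were more than 1.5-fold higher and 0 lower. Over the 13400 genes compared, 4.46% were higher and 7.28% lower. The 7 were *Mup3*, *Mup7*, *Mup17*, *Mup20* and *Mup21* of the members, with *Mup15* and *Mup5*. They were the same genes under each of the 5 scalings tried. Most of them are members, which were chosen for this contrast, so nothing is read from the count.

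**Figure D3:**
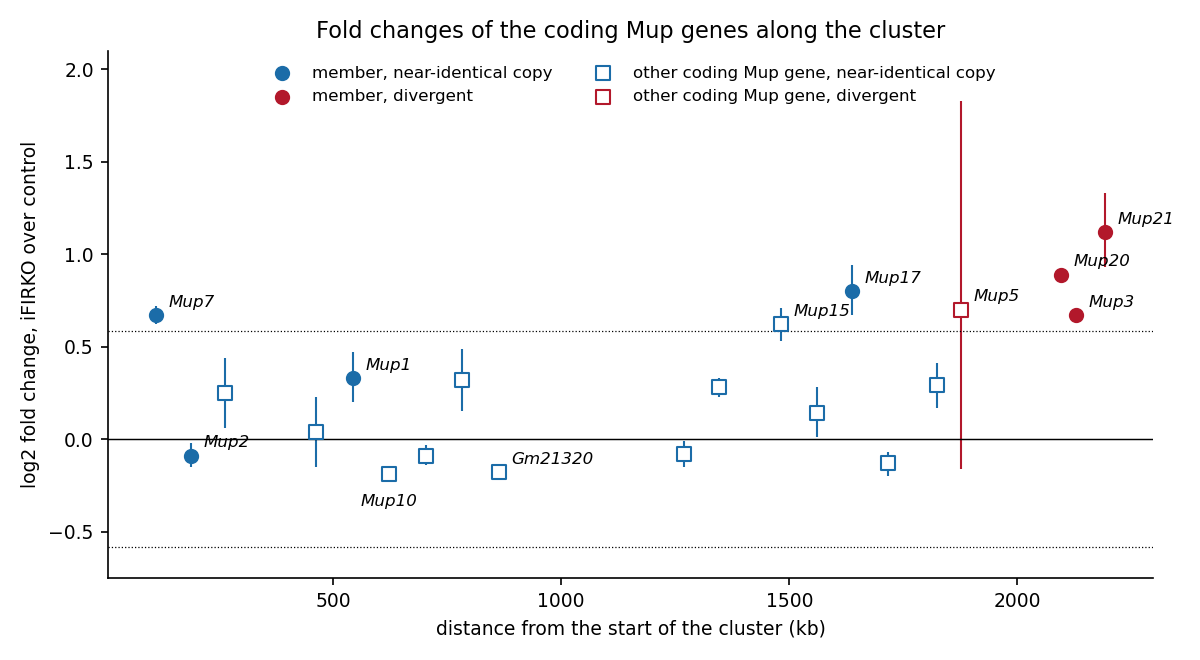
Log2 fold change, iFIRKO over control, of the 20 coding *Mup* genes above the minimum level, against the distance in kb from the start of the cluster. Filled circles are the 7 members, open squares other genes, blue the near-identical copies and red the divergent genes, vertical lines are 95% counting intervals and dotted lines mark 1.5-fold; the 3 red members at the right end lie between 0.67 and 1.12, and the blue genes spread from -0.19 to 0.80.

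Along the chromosome, the higher genes were not all neighbours. *Mup20*, *Mup3* and *Mup21* close one end of the cluster, but *Mup7* lies near the other end, next to *Mup2*, and *Mup17* lies between *Mup16* and *Mup18*. None of the measured genes that flank the cluster was past 1.5-fold. *Fkbp15* had 1581 and 1548 normalized reads (log2 fold change -0.03), *Snx30* 373.2 and 364.6 (-0.03), *Slc31a2* 383.0 and 317.4 (-0.27) and *Inip* 202.3 and 177.2 (-0.19). *Slc46a2* and *Zfp37*, the nearest on each side, were under the minimum level.

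**Figure D4:**
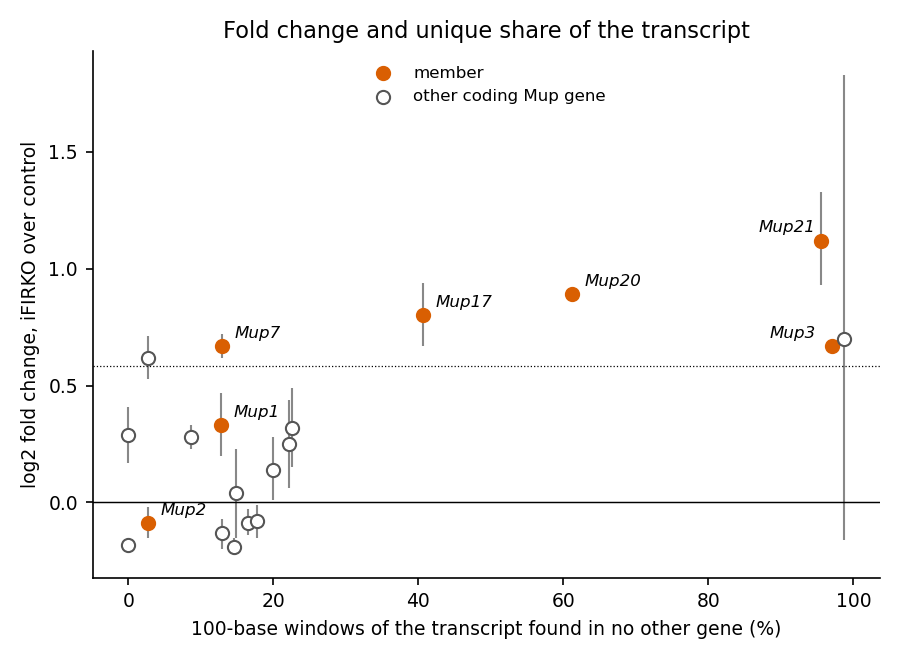
Log2 fold change, iFIRKO over control, of the same 20 coding *Mup* genes against the percentage of 100-base windows of their transcript that occur in no other gene. Filled points are the 7 members, open points other genes, vertical lines 95% counting intervals and the dotted line 1.5-fold higher. The members *Mup3*, *Mup20*, *Mup21* and *Mup17*, and *Mup5*, whose interval holds 0, have over 40% of windows to themselves. They lie at 0.67 or above, and the genes with fewer run from -0.19 to 0.67. The 40% was not a planned limit and falls just under the 40.6% of *Mup17*.

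The pseudogenes held few reads. Of 27 pseudogene rows, 7 were listed at 0 in both libraries and 3 passed the minimum level. Besides *Mup-ps19*, these were *Mup-ps16*, with 125.3 and 136.3 normalized reads, and *Mup-ps13*, with 105.1 and 81.46, neither of them past 1.5-fold. All pseudogene rows together had 644.1 normalized reads in the control and 886.4 in the iFIRKO liver. The *Mup* rows other than the members, without *Gm21320*, summed to 75265 and 75529, a log2 ratio of 0.01.

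The promoters of the cluster are alike in their letters. RefSeq (GRCm38.p6) gives promoters of 300 bases, from 250 before to 50 after the start, for 14 coding *Mup* genes, 5 of them members. The letters TATATAA, on either strand, were found in 13 of the 14 and in 4 of the 5 members (not in *Mup7*), against 3.25% of 32817 promoters. TTCNNNGAA, the palindrome that STAT5 prefers, was found in 0 of the 14, against 8.29% of all promoters. Most of the 14 belong to near-identical copies and are not separate cases, so nothing is read from the 0. No promoter is given for *Mup1* or *Mup20*. TATATAA did not separate members that were higher in the iFIRKO liver from *Mup2*, which was not.

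Other genes with a sex bias in mouse liver were examined because the *Mup* genes are male-biased. Of 18 male-biased genes outside the family that passed the minimum, 6 were higher and 2 lower, against 4.46% and 7.28% of all genes compared. The median log2 fold change of the list was 0.03. The fatty acid hydroxylases *Cyp4a12a* (385.9 and 2862 normalized reads, log2 fold change 2.88) and *Cyp4a12b* (84.95 and 679.5, log2 fold change 2.94) had the largest folds among the abundant ones, although they are close paralogs whose reads may be split. *Serpina1e*, a protease inhibitor, had 400017 and 275765 (-0.54), and *Gstp1*, a glutathione transferase, had 27536 and 33595 (0.29). The other higher genes, named after their values were seen, were *Elovl3* (2.38), *Cyp2d9* (1.12), *Cyp2u1* (0.78) and *Hsd3b5* (1.63). *Hsd3b5* had only 13.49 and 50.58 normalized reads. The 2 lower genes, also named after their values were seen, were *Cyp7b1* (-1.05), an oxysterol hydroxylase, and *Selenbp2* (-1.09).

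Of 21 female-biased genes that passed the minimum, 4 were higher and 7 lower, with a median of -0.23. Over all genes compared, lower genes also outnumbered higher ones, with 976 (7.28%) against 597 (4.46%). The summed reads gave log2 ratios of -0.34 for the male-biased and -0.37 for the female-biased list. Most of the male-biased sum was *Serpina1e*, with 400017 of 527284 normalized reads in the control and 275765 of 415182 in the iFIRKO liver. That sum therefore mostly follows 1 gene and does not describe the rest of its list. *A1bg* had 2551 and 857.7 normalized reads (-1.57), and *Hamp2*, a hepcidin, had 585.4 and 196.9 (-1.55). *Cyp2c40* had 14967 and 7921 (-0.92), and *Prlr*, the prolactin receptor, had 15432 and 12999 (-0.25). The 4 higher genes, named after their values were seen, were *Acot3* (0.67), *Sult3a1* (0.64), *Cyp3a41b* (0.60) and *Hao2*, which had 1.987 and 42.26 normalized reads. With a pseudocount at a CPM of 1 the count was 3, without *Cyp3a41b*.

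Growth hormone acts on hepatocytes through its receptor, the kinase JAK2 and STAT5, and *Socs2* and *Cish* are STAT5 targets that dampen the signal. Of 17 genes of this axis above the minimum, 0 were higher and 2 lower, against 4.46% and 7.28% of all genes compared. The median of the axis was -0.23. *Socs2* had 741.2 normalized reads in the control and 250.5 in the iFIRKO liver, or -1.55 as a log2 fold change (interval -1.87 to -1.27). *Cish* had 1461 and 723.2, or -1.01 as a log2 fold change (interval -1.20 to -0.83). Both were lower in the library in which *Mup3*, *Mup20* and *Mup21* were higher. *Ghr*, the receptor, had 17557 and 17510, and *Igf1*, the secreted growth factor it induces, had 22703 and 21475 (-0.08). *Stat5b* (-0.50, interval -0.59 to -0.41), *Jak2* (-0.45, interval -0.68 to -0.23) and *Stat5a* (-0.26) were lower by less than 1.5-fold. These were named after their values were seen.

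None of the hepatocyte transcription factors was past the threshold. Of 12, 0 were higher and 0 lower, with a median of -0.07, against 4.46% higher and 7.28% lower of all genes compared. *Zhx2*, a repressor of several fetal liver genes that is also known to affect *Mup* levels, had 750.9 and 661.4 normalized reads (-0.18, interval -0.40 to 0.03). *Hnf4a* had 29516 and 28673 (-0.04), and *Cebpa* had 8840 and 8411 (-0.07). *Foxa1*, which opens chromatin for other factors, had 768.8 and 541.9 (-0.50).

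Of 11 other lipocalins and carriers above the minimum, 1 was higher and 3 lower, against 4.46% and 7.28% of all genes compared. The median of the list was -0.17. The lower count was 2, without *Ptgds*, when the libraries were scaled to equal totals of abundant secreted proteins. *Obp2a*, an odorant-binding lipocalin, had 377.4 and 1092 normalized reads, or 1.52 as a log2 fold change (interval 1.29 to 1.78). The 3 lower genes were *Orm3* (-0.96), an orosomucoid, and, named after their values were seen, *Apom* (-0.67), which carries sphingosine phosphate, and *Ptgds* (-0.65). The retinol carrier *Rbp4* had 77974 and 69319 (-0.17) and *Ambp* 93743 and 88303 (-0.09).

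Abundant secreted hepatocyte proteins were near level. Of 25, 1 was higher and 1 lower, with a median of -0.08, against 4.46% higher and 7.28% lower of all genes compared. *Alb* had 4167154 and 3944155 normalized reads (-0.08), and *Apoe* had 516999 and 514920 (-0.01). The higher gene was *Apoc3* (0.61) and the lower *Apoa1* (-0.94). When the libraries were scaled to the same total of this list, the iFIRKO values went up by 0.08 on the log2 scale, the calls over all genes became 805 higher and 769 lower in place of 597 and 976, and the summed members gave 0.76.

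**Figure D5:**
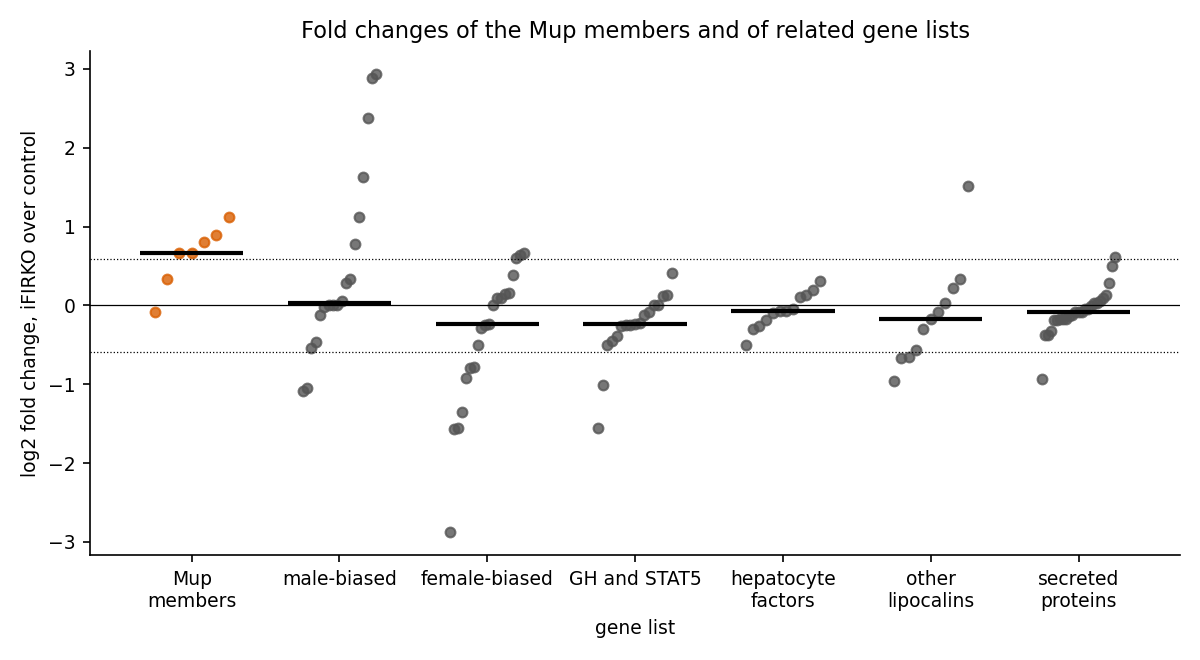
Log2 fold change, iFIRKO over control, of each gene above the minimum level among the 7 *Mup* genes (orange) and 6 gene lists (grey), with *Hao2* of the female-biased list left out because it had too few reads in the control for a fold. Thick bars are list medians and dotted lines 1.5-fold; the members' median is 0.67 and the medians of the lists run from -0.23 to 0.03.

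The genes most like the family were looked for among the 101 genes with a CPM of at least 1000 in both libraries, by the distance of their log2 fold change from that of the summed members. The measure rests on 1 difference between 2 libraries. Among the nearest 5 were *Aldh1a1* (0.64), a retinal dehydrogenase, *Scd1* (0.72), the stearoyl-CoA desaturase, *Gapdh* (0.55) and *Scp2* (0.82), a lipid carrier. *Mup3* was 1 of 6 genes among these 101 that were more than 1.5-fold higher, and 1 was lower.

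Markers of other cells moved between the libraries as well. All 6 erythroid markers were higher in the iFIRKO liver, with a summed level of 13455 in the control and 27006 normalized reads in the iFIRKO liver. Of 6 Kupffer cell and macrophage markers 3 were lower (summed 28505 and 18640), as were 2 of 6 endothelial markers (8927 and 6404). Among all genes compared, 4.46% were higher and 7.28% lower. None of 6 stellate cell or 5 cholangiocyte markers was past the threshold. Of 10 hepatocyte markers, which are high in both libraries, 1 was lower (summed 5577027 and 5262223). The part of these differences in the *Mup* values was not tested. Of markers of salivary and lacrimal glands and epididymis, other places where *Mup* genes are active, *Smr3a*, *Scgb2b2*, *Aqp5* and *Dcpp1* were listed at 0 in both libraries, and *Amy1*, which the liver also makes, had 8392 and 10965 normalized reads. The adipocyte markers *Adipoq*, *Lep* and *Plin1* were at or near 0, while *Cidec* had 17.88 and 108.4 and *Fabp4* 469.9 and 469.0. *Insr*, deleted in adipocytes and not in the liver, had 4246 and 3692 normalized reads, so it does not check the labels.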

How the data were processed

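Stranded mRNA libraries of liver total RNA were sequenced, 1 from control and 1 from iFIRKO mice. The authors deposited normalized read counts on a log2 scale, 1 table a library, in which scaled counts up to 1 appear as 0. The submitters' processing notes name mm10, and the aligner, counter, annotation and treatment of multi-mapping reads are not given in the sources used here. Listed at 0 were 62.2% of the 53342 control rows and 62.1% of the iFIRKO rows.

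The log was undone. The commonest low value was taken as 1 read pair, of 2 reads, which gave 0.9935 normalized reads to a read in the control and 1.0066 in the iFIRKO library, and estimated depths of 21138484 and 20652740 pairs. Since only 48.4% and 51.2% of the low values were whole reads, no count model was fitted, and pairs were estimated only for the counting intervals. No fold change was printed for a gene with 3 or fewer pairs in a library. A gene was called higher or lower past 1.5-fold.

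Gene models, transcripts and coding sequences came from GENCODE M21 (longest transcript in the consensus coding set), promoters from RefSeq. Coding sequences were compared with edlib 1.3.9.post1 and aligned with mafft 7.526. Other steps used scipy 1.17.1, pandas 2.3.3, numpy 2.4.6 and matplotlib 3.10.9 under Python 3.11.15. The fold and interval steps were run on simulated whole read pairs. This checks the code only and does not cover reads shared between genes. The 7 genes, the 6 gene lists and the rules were chosen with earlier results of these data known. Named are all *Mup* rows above the minimum and, of each list, the 2 highest by level and the 2 largest folds at a CPM of 10 or more. Alternatives were other pseudocounts, minimums, scalings, a fold of 2 and other sets of summed rows. Results for a few single genes that these rules name are left out.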

Additional observations from a re-analysis of the deposited data

How the results depend on the processing

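The summed members had a log2 ratio of 0.68, which became 0.70 with equal totals, 0.70 with equal totals without the *Mup* rows and 0.76 with equal totals of the secreted proteins. Other sets of rows gave 0.51 (all *Mup* rows), 0.71 (without *Mup3*) and 0.64 (without *Mup20*). Sets chosen after seeing the data gave 0.43 (all *Mup* rows and *Gm21320*), 0.43 (the 4 near-identical members), 0.71 (*Mup3*, *Mup20* and *Mup21*) and 0.03 (all 16 near-identical copies), so the value depends on whether copies that share reads are counted. The *Mup* rows other than the members gave 0.09 with the secreted scaling. The share of all reads in the members became 0.544% and 0.864% (control, iFIRKO) without the 20 most abundant other genes, and 0.587% and 0.842% with all *Mup* rows.

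Of the 7 members, 5 were past 1.5-fold and 1, *Mup21*, was past 2-fold. The 597 higher and 976 lower genes became 371 and 576 with a pseudocount at a CPM of 1, 1960 and 2620 with no minimum, 288 and 440 with a minimum CPM of 5, and 209 and 267 past 2-fold. Of 49 alternative values of single members, 43 stayed inside the main counting interval. None turned direction, but *Mup2* went from -0.09 to -0.00 with the secreted scaling.

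With the secreted scaling the list medians became 0.11 (male-biased), -0.15 (female-biased), 0.01 (hepatocyte factors), -0.09 (lipocalins) and 0.00 (secreted proteins, with 2 genes higher). With no minimum they were -0.14 (female-biased) and -0.09 (lipocalins), and with median-ratio scaling that of the secreted proteins was -0.09. A scaling adds the same shift to every gene, 0.08 for the secreted scaling and -0.01 for the median ratio, and no minimum adds genes to a list. No paired analysis was possible because only 1 library stands for a group, and for the same reason no library could be left out. Depth limits *Mup4*, *Mup6* and most pseudogenes, which had under 41.8 normalized reads.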
